A study of Homo sapiens with 16 samples.

Results

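The 45 genes described here encode the proteins of the large (60S) subunit of the cytosolic ribosome, among 60107 genes in the count tables. They were chosen by name, and the Ensembl identifiers of the tables were given symbols by GENCODE 44. All 45 were found, and 44 passed the filter on low counts in the transgene line. Their mRNA levels were followed in U2OS-TR, an established line from a human bone tumour (osteosarcoma) in which the tetracycline repressor is expressed. Tags next to the poly(A) tail of cytoplasmic RNA were sequenced, so each transcript gives a tag whatever its length.

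The transgene line, U2OS-TR/ΔN-RNMT, is 1 clone selected with G418. It carries a CMV promoter with Tet operators in front of ΔN-RNMT, a truncated cap methyltransferase with a mutated S-adenosylmethionine site that a nuclear export signal keeps in the cytoplasm, where it blocks methylation of newly added caps. Control (5 libraries) is this line uninduced, and Induced (5 libraries) is this line grown for 48 h and then given doxycycline at 1 μg/ml for 24 h. The parental U2OS-TR cells, which lack the transgene, form No Dox (3 libraries) and With Dox (3 libraries), the control for doxycycline itself. The study asked which mRNAs depend on cytoplasmic recapping, and in particular whether the TOP mRNAs do.

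The large subunit holds the peptidyl transferase centre, where peptide bonds are made, and the tunnel through which the new chain leaves the ribosome. Vertebrate ribosomal protein mRNAs are the classic TOP mRNAs: they begin with a C followed by a run of pyrimidines (a 5′ terminal oligopyrimidine tract), are very abundant in growing cells and are repressed together at the level of translation when mTOR is inactive. LARP1 binds the cap and the tract of these mRNAs. The proteins are needed in fixed proportion for each subunit. Counted in unique tags, the mean level of the mRNAs tested here ran from 3.78 to 35865 CPM in Control. The low end is RPL21, whose 133 pseudogenes held 713% of its own counts. Tags shared with pseudogenes were not counted, so this range is not one of mRNA abundance alone. CPM is the tag count of a gene per 1e6 gene counts of its library after TMM scaling.

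The transcript starts that RefSeq gives were read to see which members begin in this way. A tract was taken as C at the start followed by at least 4 bases that are C or T, on the transcribed strand only. Only the listed start base was scored, so a pyrimidine run that begins further along, as in RPL4 below, was not counted. Of the 38 members whose starts were read, 28 (73.7%) had one, against 1404 of all 27305 genes read (5.14%). The runs below show 10 bases before and 20 bases from the start (GRCh38.p14), in the transcribed direction, with the tract in capitals. Shown are 7 members lower after induction that carry a tract, and RPL32, which was lower and carries none at its listed start. Also shown are the 3 members higher after induction whose starts were read.
RPL35, chr9:124861938-124861967, minus strand: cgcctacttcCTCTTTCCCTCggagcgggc
RPL27A, chr11:8682782-8682811, plus strand: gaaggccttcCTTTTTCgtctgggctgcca
RPL12, chr9:127451387-127451416, minus strand: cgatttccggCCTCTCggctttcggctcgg
RPL41, chr12:56116623-56116652, plus strand: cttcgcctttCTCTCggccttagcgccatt
RPL29, chr3:51995876-51995905, minus strand: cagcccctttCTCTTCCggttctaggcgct
RPL37A, chr2:216498834-216498863, plus strand: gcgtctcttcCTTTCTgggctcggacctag
RPL36, chr19:5690285-5690314, plus strand: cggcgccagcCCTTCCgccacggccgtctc
RPL32, chr3:12841546-12841575, minus strand: acgacccatcagcccttgcgcgccaccgtc
RPL22, chr1:6199576-6199605, minus strand: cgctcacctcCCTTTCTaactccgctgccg
RPL4, chr15:66504836-66504865, minus strand: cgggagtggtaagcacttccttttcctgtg
RPL6, chr12:112411423-112411452, minus strand: gtatcctcagtgaatcagaaccagaaaaag
RefSeq lists 3 starts for RPL32 and 2 for RPL6, and 1 is shown. The starts of RPL5, RPL7, RPL8, RPL23, RPL23A, RPL30 and RPL37 were not read, so the tract counts leave these members out. Among them, RPL7 and RPL8 were called lower and RPL23, RPL23A and RPL30 higher. Whether these begin with a tract was not tested.

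The libraries of the transgene line held 12527183 to 23251834 gene counts and those of the parental line, sequenced at another facility, 1473286 to 3214808. RNMT, whose tags cannot separate the transgene from the native gene, rose from 74.3 ± 22.4 CPM (SD, n = 5) in Control to 346 ± 78.0 in Induced without overlap. No library of the transgene line thus went against its label. The labels of the parental libraries, which lack the transgene, cannot be checked in this way. Libraries did stand apart. On the first principal component of all genes that are not members, which held 79.4% of the variance in the transgene line, Control 1 to 4 lay between 0.230 and 0.506 and Induced 1, 3, 4 and 5 between −0.360 and −0.288, while Control 5 (−0.168) and Induced 2 (0.0693) lay between them. Control 3 was at the far end. Mitochondrial RNAs took 1.23% ± 0.221 of counts in Control and 1.07% ± 0.204 in Induced (SD, n = 5 each). Of the 6 bone and mesenchymal markers COL1A1, SPARC, RUNX2 and VIM were measured, SPP1 stayed under 1 CPM in the transgene line and COL1A2 was at or near 0. Their summed level was 306 to 642 CPM in Control and 493 to 884 CPM in Induced. The 4 epithelial markers were measured too, KRT18 at 388 CPM and KRT8 at 99.7 CPM in Control, and summed to 394 to 615 CPM in Control and 273 to 383 CPM in Induced. None of the 3 blood or 2 liver markers reached 1 CPM in any library, and CD3E and ALB were at 0. With induction VIM rose by 1.44 and RUNX2 by 1.16, while KRT18 fell by 0.78 and KRT8 by 0.40 on the log2 scale (edgeR adjusted P = 0.0182, 0.0175, 0.0175 and 0.0424). The other markers did not follow by type. EPCAM, SPARC and COL1A1 were fitted at 0.61, 0.05 and 0.0003 and were not called (edgeR adjusted P = 0.0772, 0.826 and 0.999). CDH1, which was not tested, had a mean of 0.515 CPM in Control and 1.64 CPM in Induced. The part of these marker changes in the member values was not tested. The tables hold shares of a library, so fewer transcripts per cell and more of all other RNA cannot be told apart.

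After induction large subunit mRNAs were called in both directions. With edgeR (quasi-likelihood F test, Benjamini-Hochberg adjusted P below 0.05) 18 of 44 members were called, or 40.9%, against 39.8% of the 13038 genes tested. At an unadjusted P under 0.05 there were 26, against 53.3% of genes tested. Of the 44, 12 members were lower in Induced than in Control (27.3%, against 19.8% of genes tested), 6 were higher (13.6%, against 20% of genes tested) and 26 were not called. The 12 lower members were RPL35, RPL27A, RPL12, RPL41, RPL8, RPL29, RPL37A, RPL18, RPLP0, RPL7, RPL36 and RPL32, and the 6 higher ones RPL23A, RPL6, RPL30, RPL23, RPL4 and RPL22. Fitted log2 fold changes fell on both sides of 0 for 22 members each, with a median of −0.01 beside 0.04 for all genes tested.

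**Figure D1:**
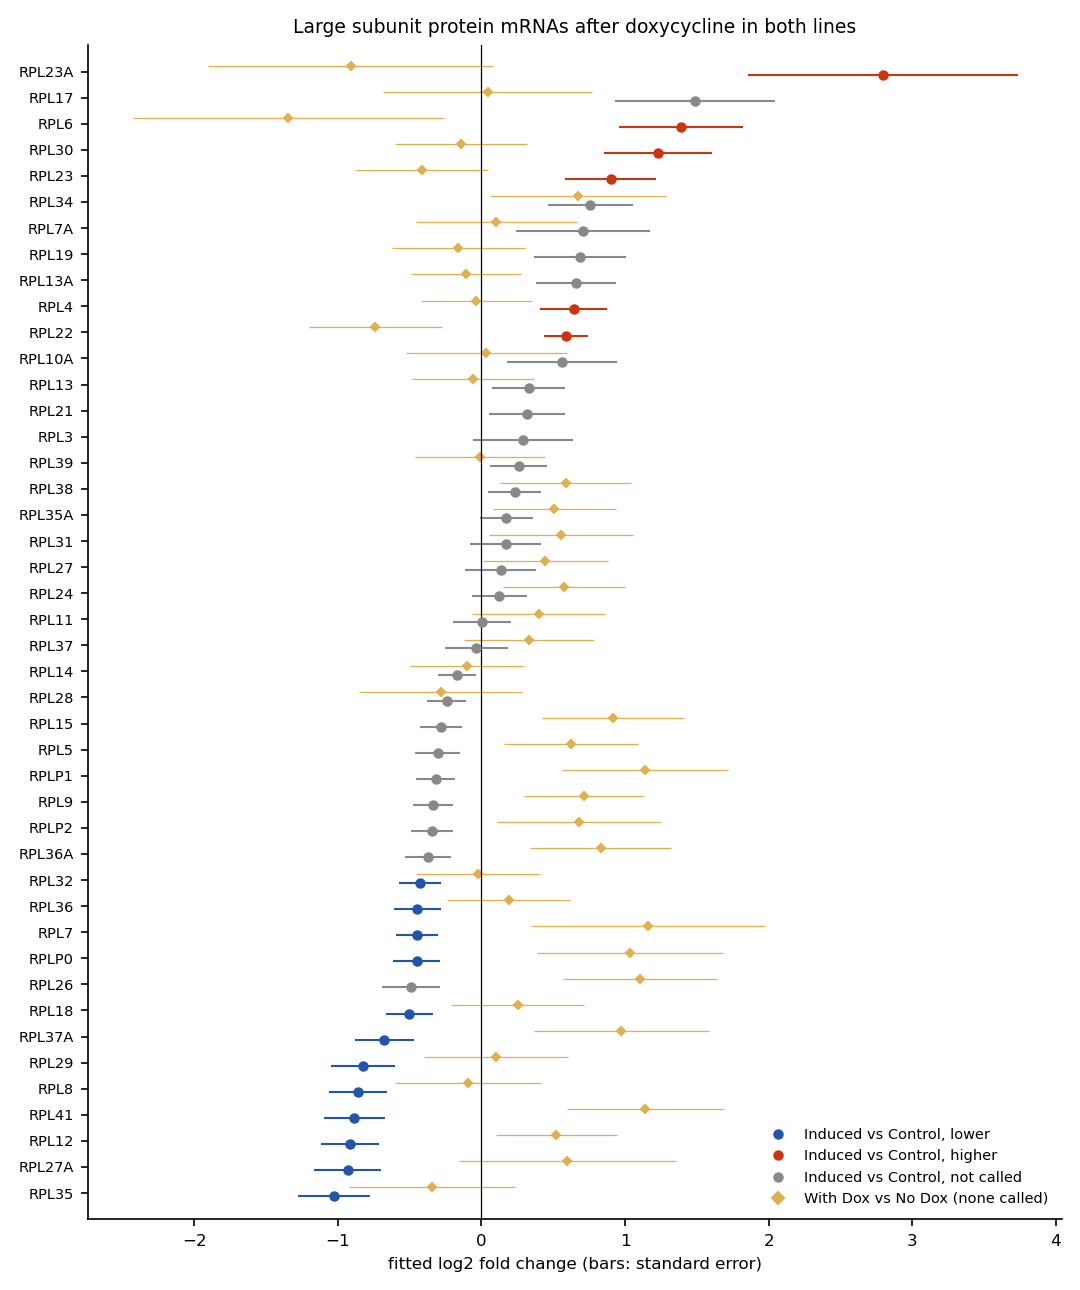
Fitted log2 fold change of the 44 tested members (rows) with standard errors, for Induced against Control (circles, coloured by call) and With Dox against No Dox (diamonds, drawn for the 42 members tested there). The circles run from −1.03 for RPL35 to 2.80 for RPL23A, and the diamonds of all 6 members called higher lie below 0.

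The calls rested on the number and choice of libraries. Without Control 5 and Induced 2, a setting chosen after seeing the data, 17 members were lower and 15 higher, including all 12 and all 6 named above, beside 30.5% and 33.8% of all genes. Without Control 5 alone there were 14 lower and 14 higher, beside 27.4% and 31.2% of all genes, and without Induced 2 alone 14 and 8, beside 23.8% and 25%. Leaving out Control 1, 2 or 4 left 6 lower members each, beside 11.5%, 9.53% and 14.6% of all genes, and 0, 1 and 1 higher, beside 8.08%, 7.08% and 10.6%. Leaving out Induced 1, 3 or 4 left 5 lower each, beside 7.27%, 9.14% and 7.14% of all genes, and 1, 2 and 0 higher, beside 6.99%, 8.5% and 7.38%. Leaving out Induced 5 left 7 lower and 1 higher, beside 15.4% and 13.2% of all genes. Without Control 3, 13 were lower and 2 higher, beside 15.3% and 13.5%. The share of all genes called thus moved in these fits too. The members called lower in all 10 of these fits were RPL8, RPL12, RPL27A, RPL35 and RPL41, and no member was called higher in all 10. For each of these lower members the largest edgeR adjusted P over the 10 fits was 0.0495, just under the cut-off.

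The P stalk, the flexible arm that recruits the translational GTPases, was the role whose members were all fitted below 0. RPL12, which anchors the stalk, had 1047, 1141, 1662, 1028 and 847 CPM in Control and 566, 786, 625, 557 and 508 CPM in Induced. The highest Induced library, Induced 2, stayed under the lowest Control library, Control 5. The log2 fold change was −0.91 (standard error 0.20, edgeR adjusted P = 0.0175).
RPLP0, the stalk's core protein, fell by 0.45 on the log2 scale (edgeR adjusted P = 0.0456), from 12696 ± 1983 to 9282 ± 939 CPM (SD, n = 5 each) with overlap. RPLP1 and RPLP2, the acidic proteins that form dimers on it, were not called, at −0.32 and −0.34. With each library's trend with transcript GC content taken out (GC offsets), RPLP0 went to −0.25 and was no longer called (edgeR adjusted P = 0.198), and RPLP2 went to 0.03. RPLP1 had 11108, 11454, 11957, 11594 and 9798 CPM in Control and 8720, 9250, 9322, 8390 and 9178 CPM in Induced, a small difference in level that left no overlap.

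RPL27A, a core protein of the large subunit, was by far the most abundant member in Control. Its level was 32859, 35599, 57285, 31604 and 21980 CPM in Control and 18547, 21798, 17239, 18927 and 17545 CPM in Induced. The groups did not overlap, although Control 5 and Induced 2 differed by under 200 CPM. The log2 fold change was −0.93 (standard error 0.24, edgeR adjusted P = 0.0177).

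RPL8, which lies near the peptidyl transferase centre, had 2616, 2753, 3806, 2464 and 2083 CPM in Control and 1418, 2028, 1569, 1292 and 1262 CPM in Induced, again without overlap and again with Control 5 and Induced 2 as neighbours. The fall was 0.86 log2 units (edgeR adjusted P = 0.0175). RPL3, in the same region, held 141 to 222 counts per Control library and was not called at 0.29. RPL10, whose protein joins last and completes the site where tRNAs bind, stood at about 1 CPM or less in every transgene library and was not tested.

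In the wall and rim of the exit tunnel the members moved in both directions. RPL35, at the rim, had 1648, 1836, 3005, 1551 and 1147 CPM in Control and 866, 1178, 931, 840 and 697 CPM in Induced, with Induced 2 just above Control 5. Its log2 fold change of −1.03 (standard error 0.25, edgeR adjusted P = 0.0176) was the largest fall among the members. RPL23A, which sits where the signal recognition particle docks, went the other way, with 22.4, 20.8, 23.3, 21.5 and 273.7 CPM in Control and 663, 31.4, 637, 508 and 676 CPM in Induced. Control 5 was over 10 times as high as the other Control libraries and Induced 2 was close to them.
Its log2 fold change of 2.80 had a standard error of 0.94 (edgeR adjusted P = 0.0356) and became 4.82 without Control 5 and Induced 2. The 91 pseudogenes named after RPL23A together had 66, 57, 46, 97 and 2213 counts in Control and 4156, 221, 4294, 4544 and 5951 in Induced. With these added to RPL23A the log2 fold change was 2.96. How tags were divided between RPL23A and its pseudogenes was not tested. RPL4, which lines the tunnel wall, rose by 0.64 on the log2 scale (edgeR adjusted P = 0.0463). RPL17 was fitted at 1.49 and just missed the call (edgeR adjusted P = 0.0509), and RPL19, RPL26, RPL31 and RPL39 were fitted at 0.69, −0.49, 0.17 and 0.26 and were not called.

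**Figure D2:**
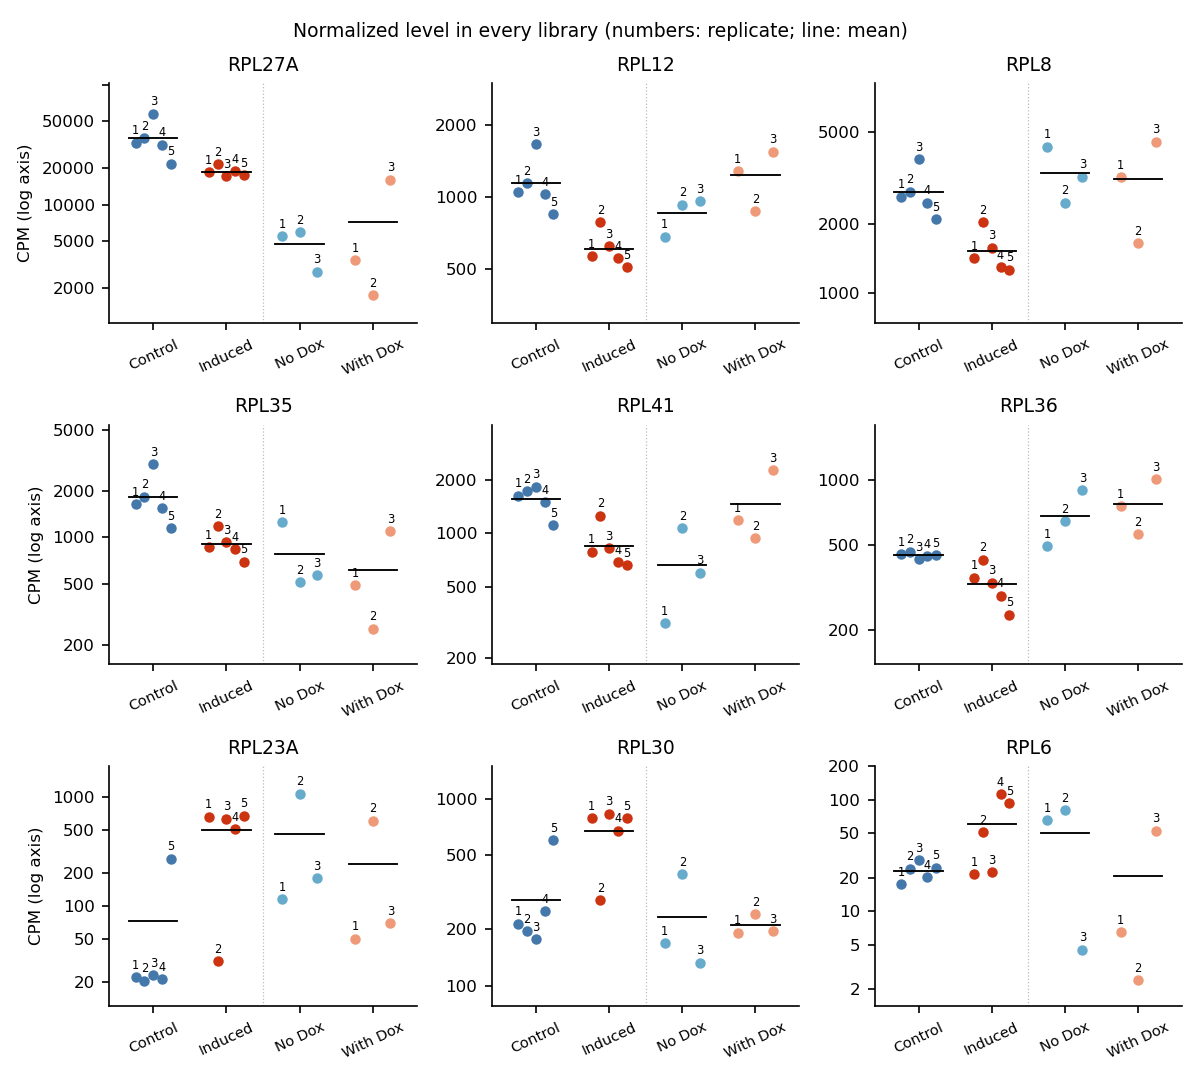
Normalized level (CPM, log axis) in each library for 9 members, with replicate numbers beside the points and a line at the group mean. Control 5 and Induced 2 lie between the other libraries of the transgene line for RPL27A, RPL35, RPL41, RPL23A and RPL30, and the 2 lines were scaled separately.

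Of the other members called lower, RPL41, the smallest ribosomal protein, had 1625, 1732, 1830, 1497 and 1112 CPM in Control and 788, 1256, 825, 687 and 665 CPM in Induced. Induced 2 alone was above the lowest Control library. The log2 fold change was −0.89 (standard error 0.21, edgeR adjusted P = 0.0175).
RPL29 had 252, 255, 394, 227 and 167 CPM in Control and 122, 162, 121, 144 and 184 CPM in Induced, so that Induced 5 lay above Control 5. The log2 fold change was −0.82, with a standard error of 0.22 (edgeR adjusted P = 0.0198).
RPL36 was nearly constant in Control, at 451, 465, 428, 444 and 449 CPM, and more spread in Induced, at 352, 426, 334, 290 and 237 CPM. The log2 fold change was −0.45 (standard error 0.16, edgeR adjusted P = 0.0477), and Induced 2 and Control 3 differed by under 3 CPM. RPL32 had 994, 1003, 940, 1036 and 1100 CPM in Control and 779, 890, 820, 628 and 657 CPM in Induced, a log2 fold change of −0.43 without overlap (edgeR adjusted P = 0.0368).
RPL37A fell by 0.68, RPL18 by 0.50 and RPL7 by 0.45 on the log2 scale, each with overlap.

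Groups without overlap were found for 7 of 44 members, all lower (15.9%, against 4.22% of genes tested): RPL27A, RPL12, RPL8, RPL36, RPL32 and, not called, RPL36A and RPLP1. None was higher in this way, against 3.08% of genes tested. Without Control 5 and Induced 2 the counts became 16 lower (36.4%, against 27.7% of genes) and 14 higher (31.8%, against 31.6% of genes).

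Among the members called higher, RPL30, a protein that binds kink-turn RNA, had 215, 196, 177, 251 and 599 CPM in Control and 791, 287, 833, 676 and 787 CPM in Induced. Control 5 stood among the Induced libraries and Induced 2 close to Control. The log2 fold change was 1.23 (standard error 0.38, edgeR adjusted P = 0.0274).
RPL6 had 17.4, 24.0, 28.7, 20.1 and 24.6 CPM in Control and 21.4, 51.3, 22.4, 112 and 93.6 CPM in Induced, so its rise (log2 1.39, standard error 0.43, edgeR adjusted P = 0.0284) was carried by Induced 2, 4 and 5. RPL23 had 663, 610, 411, 851 and 1602 CPM in Control and 1713, 1102, 1719, 1601 and 1597 CPM in Induced, and Control 5 lay within the Induced range. Its log2 fold change was 0.90 (standard error 0.32, edgeR adjusted P = 0.0416).
RPL22, a protein with a close paralog that can take its place, rose by 0.59 on the log2 scale (edgeR adjusted P = 0.0187), from 16.7 ± 1.88 to 25.05 ± 3.83 CPM (SD, n = 5 each). RPL5 and RPL11, which with 5S rRNA form the particle that also binds MDM2, were fitted at −0.31 and 0.01 and were not called. RPL10A of the L1 stalk was fitted at 0.56 and was not called.

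**Figure D3:**
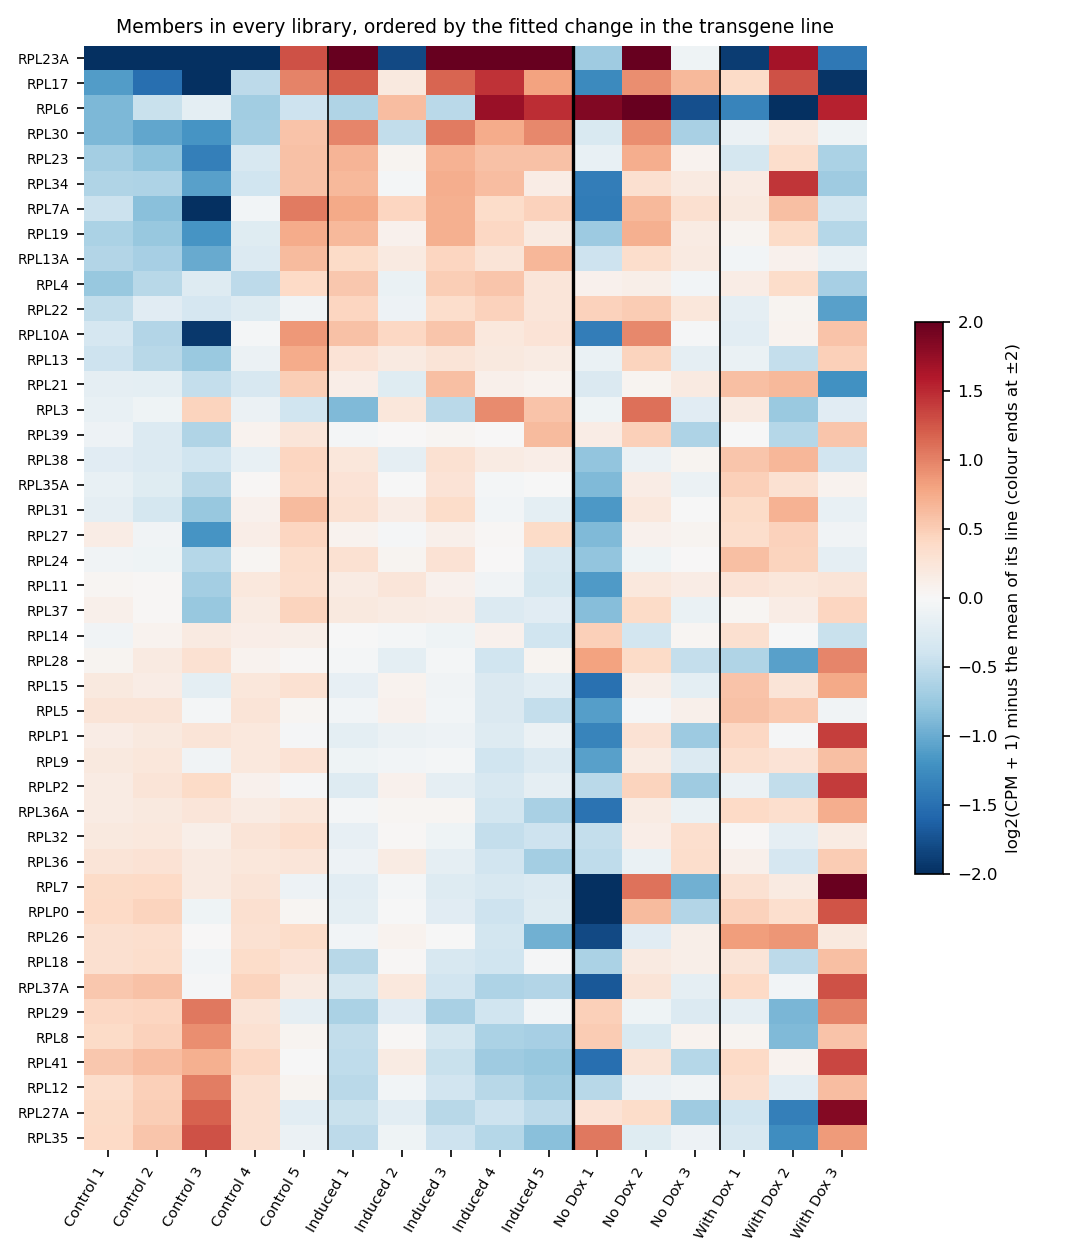
Each tested member (rows, ordered by the fitted change in the transgene line) in each of the 16 libraries (columns), as log2(CPM + 1) minus the mean of its line. Control 3 is the most extreme Control column for most members at both ends of the list, Control 5 and Induced 2 are pale for most members at the bottom, and No Dox 1 is the parental column with the most dark blue cells.

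The direction of the call went with the level counted in unique tags, which lacks any tags shared with pseudogenes. All 6 members called higher had a mean under 1000 CPM in Control, while 10 of the 12 called lower were above it, as were 22 of the 44 in all. Across the 44 members the log2 fold change correlated with the log2 level at Pearson's r = −0.54 and Spearman's rho = −0.60, given as a description, since the level enters the fold change and the members share their libraries. The log2 fold change also correlated with the number of pseudogenes named after a member (Pearson's r = 0.34, Spearman's rho = 0.30). The part of uncounted tags in these correlations was not tested. Members also differed in their spread: the coefficient of variation among Control libraries ranged from 2.64% to 156% (median 24.3%).

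Transcript GC content moved with the fold change too. The correlation was −0.26 over the 44 members and −0.37 over 12922 genes with a GC value, so the trend ran through the whole table. The members called lower had a median GC content of 52.7% (40.3 to 63.6%) and those called higher 45.3% (42.0 to 47.8%). When each library's trend with GC was taken out by offsets, 10 members were lower (22.7%, against 10.8% of genes) and 1 was higher (2.27%, against 12% of genes). RPL7, RPL12, RPL27A, RPL32, RPL37A and RPL41 were among the 10, with RPL9, RPL15, RPL26 and RPL36A, which had not been called.
RPL8, with the highest GC content of the members at 63.6%, went from −0.86 to −0.30 (edgeR adjusted P = 0.123), and RPL36 from −0.45 to 0.01 (edgeR adjusted P = 0.955). RPL35 missed the call at −0.60 (edgeR adjusted P = 0.0502), and RPL30 was the member still called higher, at 1.10 (edgeR adjusted P = 0.0477). RPL23A hardly moved, at 2.79, but was no longer called (edgeR adjusted P = 0.0520).

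**Figure D4:**
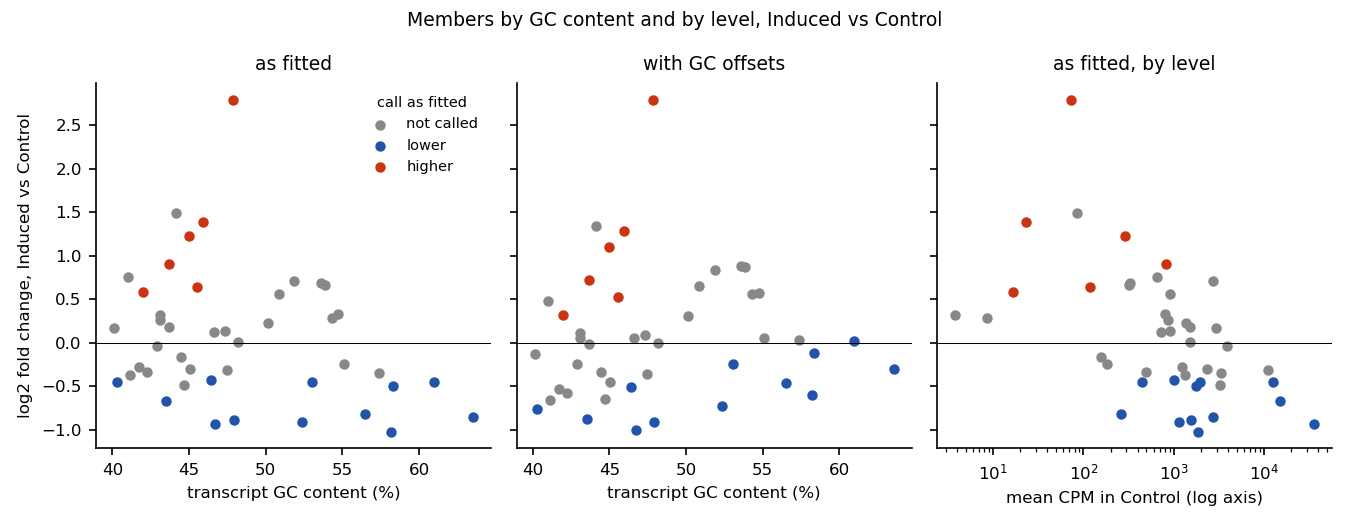
Log2 fold change of the 44 members against transcript GC content as fitted (left) and with GC offsets (middle), and against the mean Control level on a log axis (right), coloured by the call as fitted. The lower members of highest GC content move towards 0 in the middle panel, and the 6 higher members all lie under 1000 CPM in the right panel.

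The start sequences shown above did not part the members by direction alone. Scored at the listed base, a tract was found in 9 of the 10 lower members whose starts were read. It was found in 1 of the 3 higher members read (RPL22) and in 17 of the 24 that were not called. Among other genes tested, 717 of 9880 (7.26%) had one. Of the 60S assembly factors whose starts were read, 5 of 48 had one.

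As a share of all gene counts the large subunit mRNAs took 11.1% ± 0.144 (SD, n = 5, 10.9 to 11.3%) in Control and 9.82% ± 0.379 (9.37 to 10.3%) in Induced, without overlap. RPL27A alone took 3.25% ± 0.974 and 2.04% ± 0.149. The remaining 44 genes together took 7.84% ± 1.07 and 7.79% ± 0.375, with Control 3 lowest at 6.09% and Control 5 highest at 8.98%, a difference between group means well within the spread of the libraries. The small subunit mRNAs went from 13.1% ± 0.557 to 10.2% ± 1.40, also without overlap. The ratio of large to small subunit counts was 0.848 ± 0.0362 in Control and 0.969 ± 0.0994 in Induced, with overlap, since Induced 2 had 0.840. The 95% Wilson intervals of the large subunit share were at most ± 0.0166 percentage points wide for a transgene library, for counting error only.

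**Figure D5:**
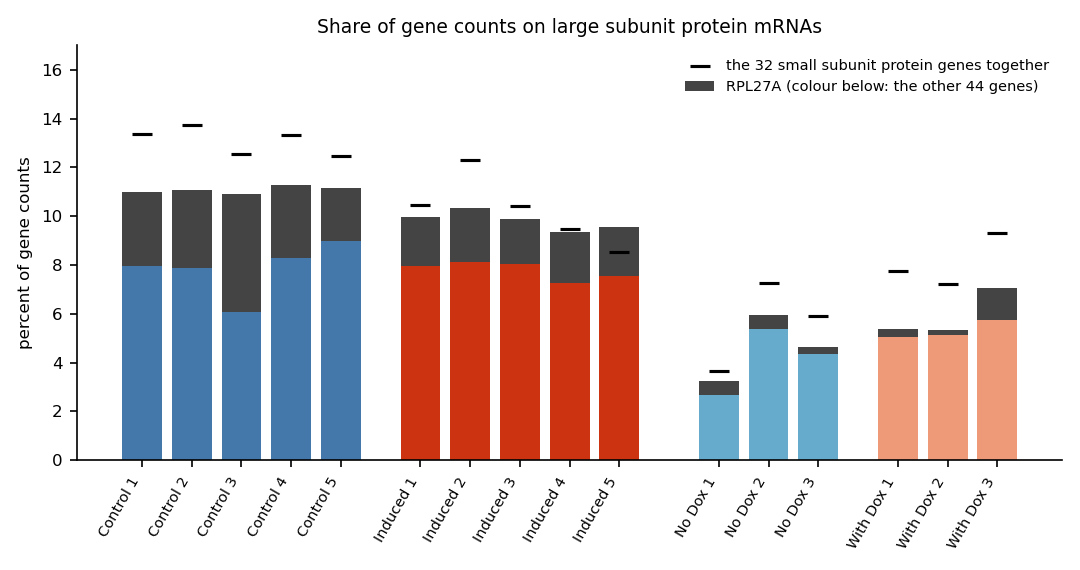
Percent of gene counts on the 45 large subunit protein genes in each library, split into RPL27A (dark) and the other 44 genes (colour), with a dash for the 32 small subunit protein genes. The coloured parts of Control and Induced overlap, while the whole bars of Control all stand above those of Induced.

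The other genes of the ribosome were read against the same 19.8% of genes called lower and 20% called higher, and the lists were not tested against each other. Of the 32 small subunit protein genes, 16 were lower and 0 higher, with a median log2 fold change of −0.45, and 26 were fitted below 0. At an unadjusted P under 0.05 in edgeR 19 were lower and 0 higher. DESeq2 called 18 lower and 0 higher, beside 22.7% and 22.8% of all genes. Of the 56 tested assembly factors of the large subunit, 14 were lower and 10 higher (median −0.08). The largest falls were PES1 (−1.26), a nucleolar factor of 60S processing, CCDC86 (−1.16) and ZNF593 (−1.07), and the largest rises URB2 (1.40), EFL1 (1.38), the GTPase that helps release eIF6, and BRIX1 (1.24).
Of the 6 tested paralogs of large subunit proteins, RPL10L, the copy of RPL10, fell by 0.63 on the log2 scale (edgeR adjusted P = 0.0187) and the other 5 were not called, although DESeq2 called 1 of them higher. RPL22L1, the paralog that can replace RPL22, was fitted at 1.67 (edgeR adjusted P = 0.0762). RPL10 and RPL10L are close in sequence, and how tags were divided between them was not tested.

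Ribosomal protein genes have many processed pseudogenes, and tags that aligned in more than 1 place were counted for no gene. These amounted to 0.561 to 1.33 tags per gene count in the transgene libraries. The pseudogenes named after RPL10 held 2531% of its own counts in Control, those of RPL21 713% and those of RPL3 220%, so the low levels of these 3 members are uncertain. Of the members called higher, RPL22, RPL23A and RPL6 had 37.0%, 31.1% and 11.2%, so their levels are uncertain too. RPL4, RPL23 and RPL30 had 0.0922%, 0.0281% and 0.0739%. Adding pseudogene counts to their parent genes gave 12 lower members (26.7%, against 19.8% of genes tested) and 8 higher ones (17.8%, against 20%).

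The scaling mattered for the balance. With total counts alone the median over all genes tested rose to 0.28 and that over the members to 0.20 (log2), and 6 members were lower (13.6%, against 10.7% of genes) and 9 higher (20.5%, against 30.8% of genes). RPL8, RPL12, RPL27A, RPL29, RPL35 and RPL41 were the 6, and the 6 called higher above were all among the 9.

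In the parental line no member passed the test with doxycycline. Of 9124 genes tested by edgeR 0 were called (0%), and of the 42 members tested 0 had an unadjusted P under 0.05 (against 2.93% of all genes), the smallest being 0.0617. DESeq2 also called 0 members. Fitted log2 fold changes lay above 0 for 27 members and below 0 for 15, with a median of 0.29 beside −0.01 for all genes tested and standard errors up to 1.08. Of the 12 members lower in Induced, 9 were fitted above 0 here, and the 6 higher in Induced were all fitted below 0.

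No Dox 1 stood apart in these values. It was the lowest of all 6 parental libraries for 26 members, and With Dox 3 was the highest for 19. RPLP0 had 547, 3630 and 1567 CPM in No Dox and 3228, 2963 and 5600 CPM in With Dox. RPL41 had 314, 1074 and 602 CPM in No Dox and 1183, 936 and 2268 CPM in With Dox, and RPL12 had 683, 929 and 960 CPM and 1279, 871 and 1545 CPM. In all 3 the groups overlapped.
No Dox 1 also had the largest mitochondrial share of counts, 9.38% against 1.76 to 5.78% in the other parental libraries, and the largest sum over the nuclear-retained RNAs MALAT1, NEAT1, KCNQ1OT1 and MEG3, at 1663 CPM against 270 to 1149. The part of these differences in the member values was not tested. Without No Dox 1 the median over the members was 0.24. Groups did not overlap for 5 members that were higher (11.9%, against 4.87% of genes) and 1 that was lower (2.38%, against 4.66% of genes). The 5 were RPL9, RPL11, RPL15, RPL26 and RPL36A, and the 1 was RPL22. With 3 libraries against 3, an exact permutation test cannot go below 0.1. As a share of gene counts the members took 4.61% ± 1.37 (SD, n = 3) in No Dox and 5.93% ± 0.997 in With Dox, with overlap. The difference of 1.32 percentage points was 0.63 without No Dox 1, 0.74 without With Dox 3 and 2.00 without No Dox 2.

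Whether the response to doxycycline differed between the lines was tested directly over all 16 libraries. By edgeR's interaction test 2 of 45 members differed, both lower in the transgene line than the parental response would give, beside 2.2% of 12265 genes tested in that direction. They were RPL12, with a difference of −1.67 on the log2 scale (standard error 0.41), and RPL41, with −2.27 (standard error 0.55), each with an edgeR adjusted P of 0.0433. No member differed in the other direction, against 0.775% of genes, while 4 had an unadjusted P under 0.05 in edgeR. DESeq2 called 1 in that direction, beside 4.79% of genes. Both calls were lost with the replicate number as a block, and both lines' values for these genes are given above: RPL12 was fitted at −0.91 and 0.52 and RPL41 at −0.89 and 1.14 in the transgene and the parental line. Without 1 library the count ran from 0 to 14 members. It was 14 without Control 5 (beside 18.9% of all genes), 8 without Induced 2 (beside 9.64%), 9 without With Dox 2 (beside 13.3%) and 4 without No Dox 2 (beside 0.955%). It was 0 without Control 1, 2, 3 or 4, Induced 1, 3, 4 or 5, No Dox 1 or With Dox 1 or 3 (beside at most 0.144% of all genes). The fit without No Dox 3 called 5.56% of all genes, and its member count is not listed here.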

How the data were processed

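Cytoplasmic RNA of 16 cultures was made into QuantSeq REV libraries and, per the labels, processed by the authors with the Lexogen pipeline for GRCh38. The deposited values are raw counts of unique tags per Ensembl gene, with the summary entries kept out here. Symbols came from GENCODE 44 (56104 genes named). Each line was tested on its own with edgeR 4.0.16 (quasi-likelihood, TMM, R 4.3.3), genes with a base mean above 20, Benjamini-Hochberg over all genes tested, and a call below 0.05. The study's methods used DESeq2, tried here (1.42.0) as an alternative. CPM are TMM-scaled within a line. The study calls the transgene libraries biological replicates, and where cultures were not separate, P-values measure technical spread only. The members and lists were chosen with earlier results of these data known. Named with values in every library are, of the called members, the 4 that rose most, the 6 that fell most and those without overlap (RNMT as label check), with others added after their values were seen. GC offsets used a lowess fit (span 0.5) per library. The scripts were tested on simulated counts. Same-numbered libraries deviated together in no regular way (mean r of 0.021), so no block was used.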

Additional observations from a re-analysis of the deposited data

Results flagged for a closer look

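Single libraries far from the rest of their group of 5 were looked for in 46 groups of values, and chance marks about 1 in 20. Control 5 was far above the other Control libraries for RPL23A (274 CPM) and RPL30 (599 CPM). Induced 2 was far below the other Induced libraries for RPL23A (31.4 CPM), RPL30 (287 CPM) and RPL23 (1102 CPM), and far above them for RPL37A (13401 CPM) and RPL41 (1256 CPM). Control 3 was far below its group for RPL18 (1416 CPM) and RPL26 (2735 CPM). The response to doxycycline was called different between the lines for RPL12 (−1.67 on the log2 scale) and RPL41 (−2.27) by edgeR's interaction test, with values in both lines given above. Both calls were lost with the replicate number as a block and in most fits without 1 library. The lines also differed in sequencing facility and depth.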

How the results depend on the processing

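Of the counts of members lower (12) and higher (6) in Induced, total counts alone gave 6 lower and no filter on low counts 6 lower (beside 8.04% of all genes), GC offsets gave 1 higher, and 1 surrogate variable gave 0 lower and 0 higher (1 gene in all). Leaving out 1 library gave 5 to 14 lower and 0 to 14 higher, and leaving out Control 5 and Induced 2 together, chosen after seeing the data, 15 higher. DESeq2 gave 17 lower (38.6%, against 22.7% of all genes) and 8 higher (18.2%, against 22.8%). The replicate block gave 8 lower (18.2%, against 17.3% of all genes) and 7 higher (15.9%, against 22.5%). Total counts alone moved the median of all genes to 0.28 and that of the members to 0.20, and 1 surrogate variable moved the latter to −0.21. Without 1 library the member median ran from −0.154 to 0.0733 in the transgene line and from 0.17 to 0.68 in the parental line, the highest without No Dox 2. Among the 18 called members RPL36 alone changed sign, with GC offsets (0.0139) and with GC offsets and the replicate block together (0.0074). Of the 26 not called 15 changed sign in at least 1 setting, among them RPLP2 (0.03) and RPL31 (−0.14) with GC offsets. Members that differed between the lines (2, beside 2.98% of all genes) were 10 by DESeq2 (beside 12%) and 1 with total counts alone (beside 4.13%). They were 0 with filterByExpr (beside 0.0182%), 0 with no filter (beside 0.529%) and 0 with the replicate block (beside 1.81%). GC offsets gave 6 (beside 3.49%) and 1 surrogate variable 5 (beside 6.8%). Without 1 library there were 0 to 14, and without Control 5 and Induced 2 there were 14 (beside 25.3%). The cause was not tested. The differences in share kept their direction, at −1.40 to −1.15 points without 1 library in the transgene line and 0.63 to 2.00 in the parental line, and the parental counts stayed at 0. Low depth and many tags outside any listed gene limit the parental line, and few unique tags limit RPL3, RPL10 and RPL21.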
